A study of Caenorhabditis elegans with 21 samples.

Results

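The genes described here make, activate, carry and burn fatty acids in Caenorhabditis elegans. They are all rows of the gene count table whose name begins with *fat*, *elo*, *acs*, *lbp*, *acdh* or *lipl* and a number, 67 of the 45461 genes listed. They fall into 6 families of 7 desaturases (*fat*), 9 elongases (*elo*), 21 acyl-CoA synthetases (*acs*), 9 fatty acid-binding proteins (*lbp*), 13 acyl-CoA dehydrogenases (*acdh*) and 8 lipases (*lipl*). Poly(A) RNA of whole worms grown at 20°C was sequenced in 3 libraries of *hpl-2*(*tm1489*) animals and 2 libraries of N2 Bristol wild-type animals. The *tm1489* allele deletes part of *hpl-2*, which encodes a homolog of heterochromatin protein 1 (HP1), a reader of methylated histone H3 that packs repressed chromatin, and the strain carries it in every cell. The sample labels give the stage as L4, the last larval stage, for *hpl-2*(*tm1489*) and as young adult for N2, whereas the study's methods give L4 for both, so that by the labels stage and genotype cannot be told apart. The question is how these genes differed between animals without and with HPL-2.

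The members act in sequence. Desaturases introduce unsaturated bonds into acyl chains and elongases lengthen them, which gives the worm its polyunsaturated and branched-chain fatty acids. Acyl-CoA synthetases couple a free fatty acid to coenzyme A, without which it can enter neither membrane lipids nor oxidation, binding proteins carry fatty acids through cell and body fluid, lipases release them from stored fat, and acyl-CoA dehydrogenases catalyze the opening step of beta-oxidation. Most of this chemistry takes place in the intestine, which is both the gut and the main fat store of the worm, and in the epidermis.

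Total counts on genes came to 95252804 to 114718047 in the *hpl-2*(*tm1489*) libraries and to 66490671 and 80724052 in N2. Levels are given in CPM, the counts of a gene per 1000000 counts of its TMM-adjusted library. *hpl-2* itself was at 26.7, 30.4 and 29.9 CPM in *hpl-2*(*tm1489*) replicates 1, 2 and 3, against 38.9 and 38.6 CPM in N2 replicates 1 and 2, a log2 fold change of -0.42 (standard error 0.26, adjusted p = 0.192, or 0.0279 without the mutant replicate 2). A single count per gene does not separate the deleted stretch from the rest of the transcript, so this value leaves the genotype labels unchecked. The change was broad, since 10757 of the 17498 genes that passed the low-count filter had an adjusted p under 0.1. Every adjusted p here is from edgeR's quasi-likelihood test unless another test is named, and a gene under 0.1 is said to be called. Markers of the tissues differed as well. All 10 oocyte and eggshell markers were higher in *hpl-2*(*tm1489*), with a median log2 fold change of 2.54, and 9 of them had groups that did not overlap. Their median was 2.35 without N2 replicate 1, and 2.13 with 9 called without *hpl-2*(*tm1489*) replicate 3. In contrast, 8 of 9 intestine markers (median -0.98, or -0.84 without N2 replicate 2), 6 of 9 epidermis markers (median -2.27) and all 4 tested body muscle markers (median -3.36) were lower. The epidermis marker *col-19*, a cuticle collagen gene of the adult that was named after its value was seen, was higher (log2 fold change 1.68, adjusted p = 0.00190). Fewer cells of a type and less RNA per cell cannot be told apart in whole-animal RNA. *hpl-2*(*tm1489*) replicate 2 stood apart from replicates 1 and 3, as it was the lowest of the 3 for all 10 oocyte markers, whose summed level was 912 CPM there, with 2406 and 3253 CPM in replicates 1 and 3 and 416 and 574 CPM in N2.

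Of the 67 members, 65 passed the filter. The remaining pair were *fat-7*, listed at 0 in all 5 libraries, and *lipl-8*, with 0, 8 and 3 counts in *hpl-2*(*tm1489*) and 0 in both N2 libraries. Of the 65, 27 (41.5%) were lower in *hpl-2*(*tm1489*) and 11 (16.9%) were higher, where 27.6% of all tested genes were lower and 33.9% higher. The 38 called members made up 58.5%, beside 61.5% of all tested genes, so that the members were not called more often than other genes but were called in the lower direction more often than the higher one. Their log2 fold changes ran from -4.49 for *lipl-3* to 2.80 for *acdh-2*, with a median of -0.26, whereas the median of all tested genes was 0.16. Summed over the 67 members the groups overlapped, at 10219, 12519 and 10466 CPM in *hpl-2*(*tm1489*) and 10795 and 11079 CPM in N2. In 32 members every mutant library was below every N2 library and in 15 every mutant library was above, and in 18 the groups overlapped. Over all tested genes 72.0% did not overlap, 33% with *hpl-2*(*tm1489*) below and 39.0% with it above. The 27 members that were not called had log2 fold changes between -0.52 and 0.98. Desaturases and lipases had no called member above N2, and binding proteins had none below it. The share called was 66.7% of tested desaturases and of elongases, 52.4% of synthetases and 55.6% of binding proteins. It was 61.5% of dehydrogenases and 57.1% of tested lipases, beside the 61.5% of all tested genes.

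**Figure D1:**
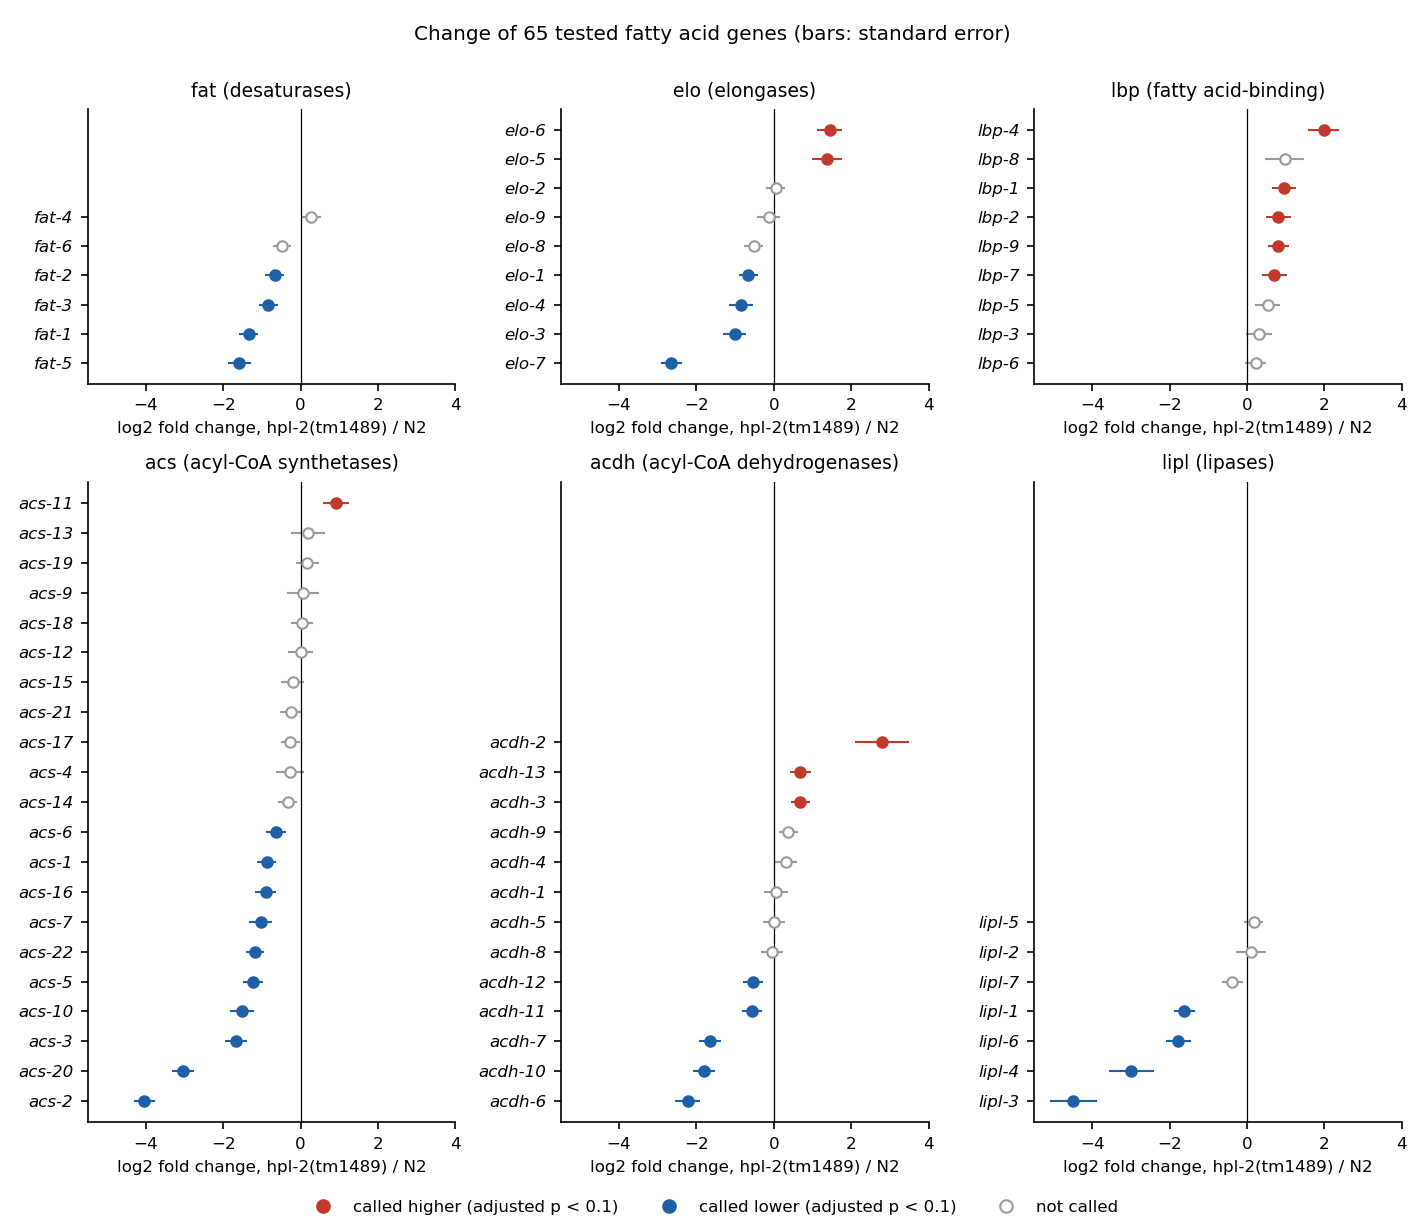
Log2 fold change of each of the 65 tested members, *hpl-2*(*tm1489*) over N2, on the horizontal axis, 1 panel per gene family, with bars for the standard error. Red points were called higher (11 genes), blue points lower (27 genes) and open points were not called (27 genes). All 9 *lbp* points lie to the right of 0, and 5 of 6 *fat* points lie to its left.

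The desaturase genes were lower in *hpl-2*(*tm1489*) along most of the pathway, with 4 of the 6 tested called lower, none higher and a median log2 fold change of -0.76. *fat-1* encodes the omega-3 desaturase, which turns omega-6 fatty acids into omega-3 ones. It was at 252, 244 and 281 CPM in the *hpl-2*(*tm1489*) libraries, against 607 and 702 CPM in the N2 libraries, and every mutant library lay well below both N2 libraries. The gene was 2.53-fold lower (log2 fold change -1.34, standard error 0.24, adjusted p = 0.00141). *fat-2*, whose enzyme makes linoleic acid from oleic acid, was at 373, 407 and 389 CPM in *hpl-2*(*tm1489*), against 621 and 625 CPM in N2. The groups were tight and well apart, with a log2 fold change of -0.68 (standard error 0.24, adjusted p = 0.0351). *fat-3*, which acts on linoleic acid on the way to arachidonic acid, had 112, 134 and 126 CPM in *hpl-2*(*tm1489*) and 241 and 202 CPM in N2, again without overlap (log2 fold change -0.84, standard error 0.25, adjusted p = 0.0169). *fat-5*, a palmitoyl-CoA desaturase, showed the largest change of the family, with 5.36, 3.36 and 3.83 CPM in *hpl-2*(*tm1489*) and 13.2 and 12 CPM in N2. It was 3.01-fold lower (log2 fold change -1.59, standard error 0.29, adjusted p = 0.00154).

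The other desaturases did not pass the threshold. *fat-4*, which catalyzes the last desaturation toward arachidonic and eicosapentaenoic acid, was at 340, 477 and 372 CPM in *hpl-2*(*tm1489*), against 321 and 334 CPM in N2. The mutant libraries lay just above the N2 libraries, and the log2 fold change of 0.27 (standard error 0.26, adjusted p = 0.400) was within its error. *fat-6*, a stearoyl-CoA desaturase that makes oleic acid, was at 402, 423 and 426 CPM in *hpl-2*(*tm1489*) and at 577 and 594 CPM in N2. These groups did not overlap, but the log2 fold change of -0.49 (standard error 0.24) narrowly missed the threshold with an adjusted p of 0.107. It passed in DESeq2 (adjusted p = 0.0833), with upper quartile scaling (0.0128), with span offsets (0.0221) and without *hpl-2*(*tm1489*) replicate 2 (0.0240). *fat-7* encodes a close copy of the *fat-6* enzyme, and reads that map to both would be lost from a table of uniquely mapped reads. *fat-6* itself kept 31962 to 51397 counts per library, and the cause of the 0 of *fat-7* was not tested. The table lists 22358 genes at 0 in every library, among them 788 protein-coding genes of the RefSeq table such as *let-767*, a ketoacyl-CoA reductase gene that worms need to live, so that the 0 of *fat-7* gives no level. With 1 N2 library left out, a fit in which the lone N2 library is assumed to vary like the other libraries, *fat-2* lost its call (adjusted p = 0.146 without N2 replicate 1 and 0.158 without replicate 2), and so did *fat-3* without N2 replicate 1 (0.143). With library size alone *fat-2* was not called either (log2 fold change -0.42, adjusted p = 0.133).

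The elongase genes moved in both directions, with 2 of 9 called higher, 4 lower and a median log2 fold change of -0.52. Their summed level was higher in the mutant, at 2194, 3415 and 2472 CPM in *hpl-2*(*tm1489*), against 1830 and 1802 CPM in N2. The higher pair were *elo-5* and *elo-6*, whose enzymes make the monomethyl branched-chain fatty acids that worms need to grow. *elo-5* was at 304, 638 and 325 CPM in *hpl-2*(*tm1489*), against 199 and 127 CPM in N2 (log2 fold change 1.38, standard error 0.39, adjusted p = 0.0139). *elo-6* was at 1132, 2104 and 1327 CPM in *hpl-2*(*tm1489*), against 626 and 494 CPM in N2 (log2 fold change 1.44, standard error 0.33, adjusted p = 0.00515). In both genes replicate 2 was the highest mutant library by far, and every mutant library lay above both N2 libraries. The largest change of the family was in *elo-7*, an elongase homolog, at 2.28, 2.62 and 2.41 CPM in *hpl-2*(*tm1489*) and 13.6 and 17 CPM in N2, 6.27-fold lower (log2 fold change -2.65, standard error 0.27, adjusted p = 6.85e-05). *elo-3* was at 102, 78.2 and 116 CPM in *hpl-2*(*tm1489*), against 154 and 245 CPM in N2 (log2 fold change -1.02, standard error 0.30, adjusted p = 0.0160), and its N2 libraries differed from each other more than the mutant ones did. *elo-1*, which lengthens polyunsaturated chains (log2 fold change -0.65, adjusted p = 0.0448), and *elo-4* (-0.84, 0.0374) were lower as well, and *elo-2*, *elo-8* and *elo-9* were not called. Without N2 replicate 2 the calls of *elo-3* (log2 fold change -0.63, adjusted p = 0.217), *elo-5* (1.10, 0.114), *elo-1* (-0.55, 0.241) and *elo-4* (-0.83, 0.127) were lost. Without N2 replicate 1 *elo-1* (adjusted p = 0.122) and *elo-4* (0.113) were lost, as was *elo-4* without *hpl-2*(*tm1489*) replicate 1 (0.132) or 3 (0.126). With library size alone *elo-1* (log2 fold change -0.40, adjusted p = 0.126) and *elo-4* (-0.57, 0.204) were not called.

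**Figure D2:**
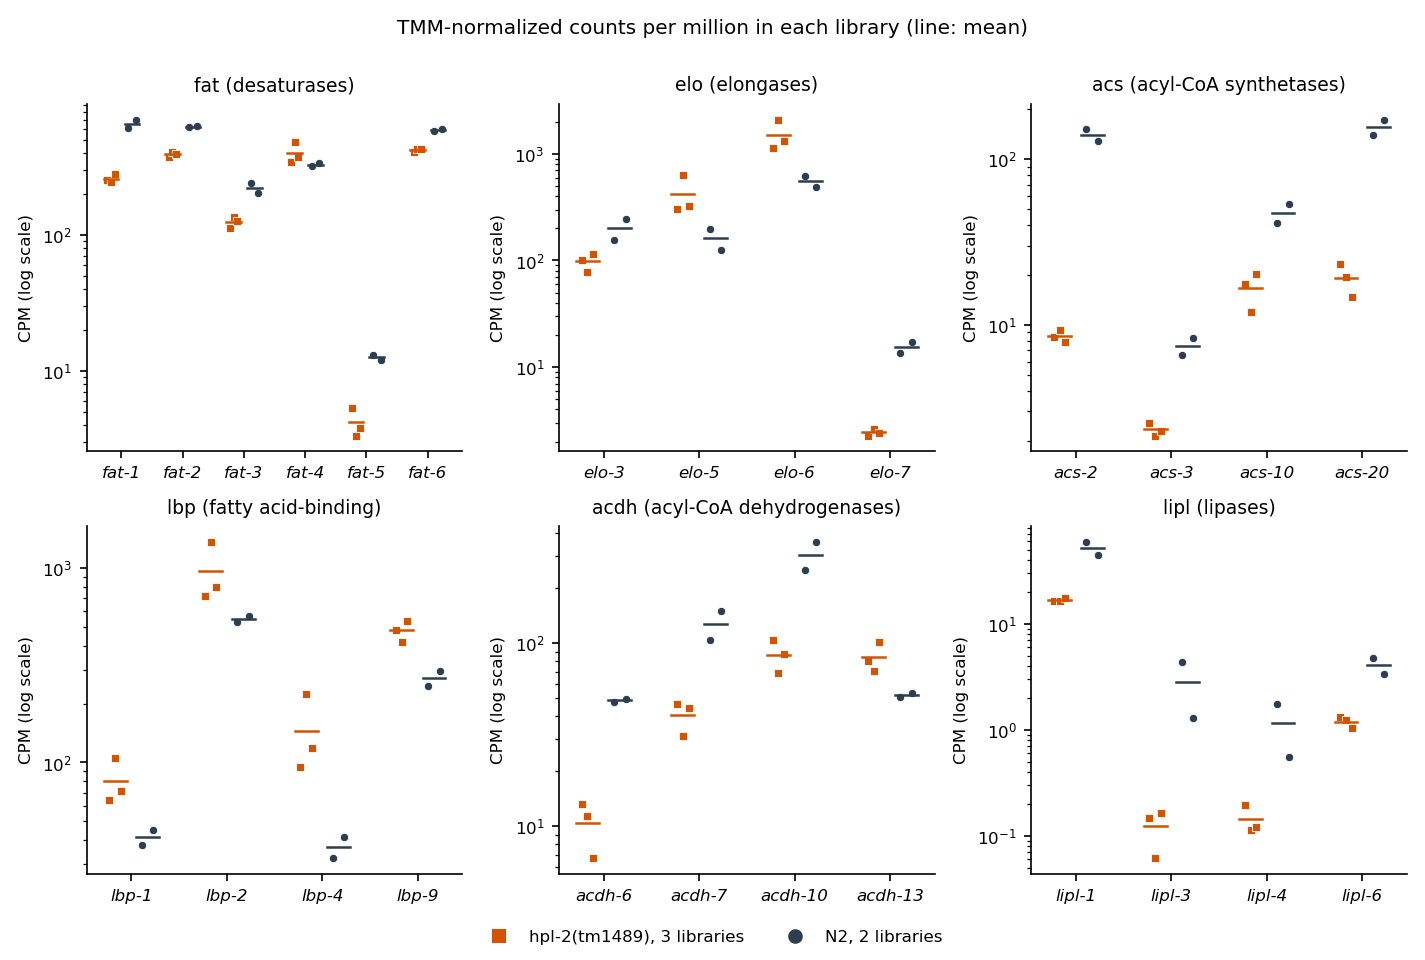
TMM-normalized level in each library, in CPM on a log scale, 1 panel per family, for the *fat* members with counts and up to 4 called members of each other family. Orange squares are the 3 *hpl-2*(*tm1489*) libraries, dark circles the 2 N2 libraries, and lines the group means. In *acs-2* the mutant libraries lie between 7.92 and 9.29 CPM and the N2 libraries at 128 and 152 CPM.

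Among the acyl-CoA synthetases 10 of 21 were lower, 1 was higher and 10 were not called, with a median log2 fold change of -0.33. *acs-2*, a mitochondrial synthetase that feeds fatty acids into beta-oxidation and that is known to be induced by fasting, was at 8.39, 9.29 and 7.92 CPM in *hpl-2*(*tm1489*), against 152 and 128 CPM in N2. Both groups were tight, and the gene was 16.4-fold lower (log2 fold change -4.04, standard error 0.27, adjusted p = 2.11e-05). *acs-20*, a fatty acid transport protein homolog needed for the barrier of the cuticle, was at 23.2, 19.3 and 14.8 CPM in *hpl-2*(*tm1489*), against 140 and 173 CPM in N2. It was 8.19-fold lower (log2 fold change -3.03, standard error 0.29, adjusted p = 5.07e-05). *acs-22*, a relative of *acs-20* of the same transport protein type, was 2.26-fold lower (log2 fold change -1.18, adjusted p = 0.00285). The summed level of the 9 epidermis markers also differed, with 2115, 1319.9 and 2224 CPM in *hpl-2*(*tm1489*) and 3914 and 5310.1 CPM in N2, and its part in the change of the *acs* genes was not tested.

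*acs-3*, which in worms acts on fat storage together with the nuclear receptor NHR-25, had 2.57, 2.15 and 2.30 CPM in *hpl-2*(*tm1489*) and 6.61 and 8.32 CPM in N2 (log2 fold change -1.67, standard error 0.28, adjusted p = 0.000976). *acs-10* was at 17.6, 12 and 20.2 CPM in *hpl-2*(*tm1489*), against 41 and 53.6 CPM in N2 (log2 fold change -1.51, standard error 0.31, adjusted p = 0.00258). Neither gene had overlapping groups. The other synthetases that fell were *acs-5* (log2 fold change -1.23), *acs-7* (-1.04), *acs-16* (-0.91), *acs-1* (-0.88) and *acs-6* (-0.64). *acs-1* is known for handling branched-chain fatty acids, and it changed in the opposite direction to the elongases *elo-5* and *elo-6* that make them. The synthetase that rose was *acs-11*, at 85.3, 92.5 and 89.3 CPM in *hpl-2*(*tm1489*), against 62.8 and 31.4 CPM in N2 (log2 fold change 0.92, standard error 0.33, adjusted p = 0.0382). Its N2 libraries differed widely, and without N2 replicate 2 its log2 fold change was 0.51 (adjusted p = 0.311), without N2 replicate 1 it was 1.51. Calls were also lost without N2 replicate 2 for *acs-1* (adjusted p = 0.105), *acs-6* (0.111) and *acs-16* (0.118), without N2 replicate 1 for *acs-6* (0.253) and *acs-7* (0.109), and for *acs-6* without *hpl-2*(*tm1489*) replicate 1 (0.169) or 3 (0.133). Other scalings ended the calls of *acs-6* with library size alone (0.305), of *acs-11* under upper quartile scaling (0.163) and of *acs-1* (0.107) and *acs-16* (0.169) with span offsets.

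The fatty acid-binding protein genes leaned the other way. All 9 had a positive log2 fold change, as did 9510 of all 17498 tested genes. Of the 9, 5 were called higher (33.9% of all tested genes were) and none lower. Their median was 0.82, beside 0.16 over all tested genes. In 6 of the 9 every mutant library was above both N2 libraries, as in 39.0% of all tested genes. *lbp-4* changed the most, with 94.5, 225 and 118 CPM in *hpl-2*(*tm1489*) and 32.1 and 41.6 CPM in N2. It was 3.96-fold higher (log2 fold change 1.98, standard error 0.40, adjusted p = 0.00257), and its lowest mutant library lay well above the higher N2 library. *lbp-1* and *lbp-2* encode binding proteins with a signal for secretion, which places them in the body fluid. *lbp-1* was at 64.1, 106 and 71.1 CPM in *hpl-2*(*tm1489*), against 37.8 and 44.8 CPM in N2 (log2 fold change 0.96, standard error 0.31, adjusted p = 0.0241). *lbp-2* was at 725, 1363 and 805 CPM in *hpl-2*(*tm1489*), against 530 and 566 CPM in N2 (log2 fold change 0.82, standard error 0.32, adjusted p = 0.0561). In each of these 3 genes replicate 2 lay far above the other mutant libraries. It was the highest of them in 8 of the 9 family members, beside 7650 of all 17498 tested genes. *lbp-9*, the exception, was at 484, 415 and 538 CPM in *hpl-2*(*tm1489*) and 248 and 297 CPM in N2 (log2 fold change 0.82, standard error 0.26, adjusted p = 0.0245). *lbp-7* was called with a log2 fold change of 0.70 (adjusted p = 0.0925), and *lbp-3*, *lbp-5*, *lbp-6* and *lbp-8* were not.

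The size of this rise depended on the scaling and on replicate 2. Without *hpl-2*(*tm1489*) replicate 2 the median over the 9 genes was 0.39 and 3 were called higher, with *lbp-2* (adjusted p = 0.108) and *lbp-7* (0.216) lost. In that fit *lbp-3* (-0.15) and *lbp-6* (-0.0088) had negative log2 fold changes. Under upper quartile scaling 2 of the 9 were called and the median was 0.48, with *lbp-6* at -0.080. Span offsets remove the trend of each library with gene span, the distance from a gene's start to its end. Under these offsets only *lbp-4* was called and the median was 0.080. *lbp-6* (-0.39), *lbp-3* (-0.30), *lbp-5* (-0.13) and *lbp-7* (-0.10) were then negative. *lbp-4* was called under every alternative, with an adjusted p of 0.0255 at most. Without N2 replicate 1, *lbp-1* (adjusted p = 0.146), *lbp-2* (0.196), *lbp-7* (0.201) and *lbp-9* (0.173) were lost, and without N2 replicate 2, *lbp-2* (0.157) and *lbp-7* (0.293). *lbp-7* was lost too without *hpl-2*(*tm1489*) replicate 1 (0.101), under DESeq2 (0.103) and without a low-count filter (0.141).

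**Figure D3:**
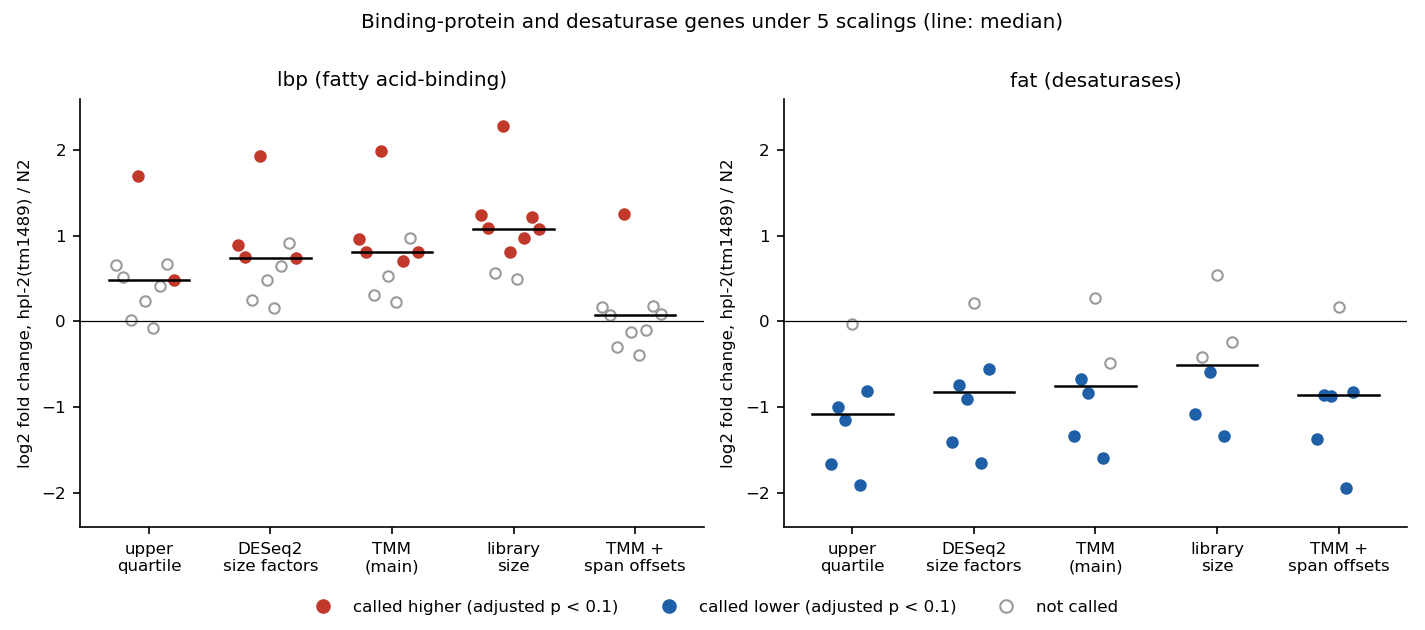
Log2 fold change, *hpl-2*(*tm1489*) over N2, on the vertical axis of the 9 *lbp* genes (left) and the 6 tested *fat* genes (right) under 5 scalings of the libraries, with a line at the median. Red points were called higher, blue points lower and open points not called. The *lbp* median lies at 0.82 under TMM and at 0.080 under span offsets, and the *fat* median lies between -1.07 and -0.51 under all 5.

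The acyl-CoA dehydrogenase genes had the most even split, with 5 of 13 lower, 3 higher and a median log2 fold change of 0.010, which changed sign with the scaling. The 3 largest falls were in *acdh-6*, *acdh-10* and *acdh-7*. *acdh-6* was at 13.2, 11.4 and 6.68 CPM in *hpl-2*(*tm1489*), against 48.0 and 49.5 CPM in N2, 4.67-fold lower (log2 fold change -2.22, standard error 0.32, adjusted p = 0.000443). *acdh-10*, the ortholog of the human medium-chain dehydrogenase, was at 104.01, 68.6 and 87.5 CPM in *hpl-2*(*tm1489*), against 250 and 357 CPM in N2 (log2 fold change -1.81, standard error 0.28, adjusted p = 0.000656). *acdh-7*, which lies next to *acdh-10*, was at 46.4, 31.3 and 44.4 CPM in *hpl-2*(*tm1489*), against 103.7 and 151 CPM in N2 (log2 fold change -1.65, standard error 0.29, adjusted p = 0.00127). In all 3 genes the highest mutant library lay below the lower N2 library by a wide margin. *acdh-13* was higher, with 79.5, 70.1 and 102 CPM in *hpl-2*(*tm1489*) and 50.7 and 53.3 CPM in N2 (log2 fold change 0.69, standard error 0.28, adjusted p = 0.0578). *acdh-3* rose by 0.69 as well (adjusted p = 0.0399). *acdh-2* rose at a low level, from counts of 45, 61 and 39 in *hpl-2*(*tm1489*) and 3 and 5 in N2 (log2 fold change 2.80, standard error 0.69, adjusted p = 0.00727), and its log2 fold change was 2.23 without N2 replicate 1 and 3.52 without N2 replicate 2.

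*acdh-11*, whose enzyme takes part in the adaptation of worm membranes to heat, and *acdh-12* were called lower only just, with log2 fold changes of -0.56 (adjusted p = 0.0998) and -0.54 (adjusted p = 0.0990). *acdh-1*, the dehydrogenase of the vitamin B12-independent route of propionate breakdown, was at 1097, 1294 and 750.3 CPM in *hpl-2*(*tm1489*) and at 1155 and 864 CPM in N2. These groups overlapped fully. The calls of *acdh-3*, *acdh-11*, *acdh-12* and *acdh-13* were lost without either N2 library, with adjusted p between 0.136 and 0.432. Without *hpl-2*(*tm1489*) replicate 1 the calls of *acdh-12* (adjusted p = 0.126) and *acdh-13* (0.146) were lost, and without replicate 3 those of *acdh-11* (0.120) and *acdh-13* (0.170). With library size alone *acdh-11* (0.332) and *acdh-12* (0.303) were not called, with span offsets *acdh-3* (0.455), *acdh-11* (0.283) and *acdh-13* (0.161), and under upper quartile scaling *acdh-3* (0.208) and *acdh-13* (0.232). Without a low-count filter *acdh-3* (0.128) and *acdh-13* (0.137) were not called.

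Of the 7 tested lipases 4 were lower and none was higher, with a median log2 fold change of -1.62. *lipl-1* was at 16.5, 16.5 and 17.6 CPM in *hpl-2*(*tm1489*), against 58.6 and 44.8 CPM in N2 (log2 fold change -1.62, standard error 0.26, adjusted p = 0.000818). *lipl-1* and *lipl-3* encode lysosomal lipases that release fatty acids during fasting. *lipl-3* had 19, 7 and 15 counts in *hpl-2*(*tm1489*), against 347 and 69 counts in N2, with a log2 fold change of -4.49 (standard error 0.60, adjusted p = 0.000285). The N2 libraries were themselves far apart, and the log2 fold change was -3.35 without N2 replicate 1 and -5.10 without N2 replicate 2. *lipl-4*, a lysosomal lipase known for lengthening the life of worms when overexpressed, showed the same unevenness, with 25, 13 and 11 counts in *hpl-2*(*tm1489*) and 140 and 30 counts in N2 (log2 fold change -2.99, standard error 0.58, adjusted p = 0.00204). Its log2 fold change was -1.93 without N2 replicate 1. *lipl-6* was at 1.33, 1.23 and 1.03 CPM in *hpl-2*(*tm1489*), against 4.80 and 3.38 CPM in N2 (log2 fold change -1.77, standard error 0.32, adjusted p = 0.00145). All 4 of these genes had groups that did not overlap, and *lipl-2*, *lipl-5* and *lipl-7*, whose groups overlapped, were not called. Summed over all 8 lipases the groups overlapped, at 868, 901 and 769 CPM in *hpl-2*(*tm1489*) and 785 and 814 CPM in N2. Most of this was *lipl-5*, at 774, 764 and 695 CPM in *hpl-2*(*tm1489*) and 616 and 701 CPM in N2 (log2 fold change 0.18).

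Some members are neighbors in the genome. The RefSeq gene table of the WBcel235 assembly, used here for names, gene order, gene class and span but not for coordinates, places 6 pairs of members next to each other. The pairs *fat-1* and *fat-2*, *elo-1* and *elo-7*, *acdh-10* and *acdh-7*, *lbp-3* and *lbp-1*, and *lbp-1* and *lbp-2* had log2 fold changes of the same sign within each pair. The pair *fat-4* and *fat-3* did not, at 0.27 and -0.84. *lbp-3* was not called (log2 fold change 0.31, adjusted p = 0.468). Its log2 fold change was -0.15 without *hpl-2*(*tm1489*) replicate 2 and -0.30 with span offsets. Neighbors with the same sign were not counted over the genome. Strand use in the counting is not given in the sources used here, so that reads from overlapping genes on opposite strands could have been counted for either.

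The genes upstream of the desaturases and elongases included the 2 enzymes that build palmitate. *pod-2*, the acetyl-CoA carboxylase gene, was at 132, 88.4 and 149 CPM in *hpl-2*(*tm1489*), against 354 and 431 CPM in N2 (log2 fold change -1.68, standard error 0.29, adjusted p = 0.00104). *fasn-1*, the fatty acid synthase gene, was at 56.6, 28 and 61.8 CPM in *hpl-2*(*tm1489*), against 245 and 362 CPM in N2 (log2 fold change -2.64, standard error 0.36, adjusted p = 0.000321). Both were lowest in replicate 2, the library in which *elo-5*, *elo-6* and 8 of the 9 *lbp* genes were highest. Over all 17498 tested genes, replicate 2 was the highest mutant library for 7650 and the lowest for 7331. Of the 7 tested genes of the synthesis core 3 were lower and 2 higher (median -0.42, or -0.25 without N2 replicate 2 and -0.15 with library size alone). Named after their values were seen, the third lower gene was *art-1*, an enoyl-CoA reductase homolog (log2 fold change -0.92, or -0.69 with an adjusted p of 0.165 without N2 replicate 2), and the higher ones were *acly-2*, listed as B0365.1, for an ATP citrate lyase that supplies acetyl-CoA (1.98), and *mlcd-1*, for the decarboxylase that breaks malonyl-CoA down again (1.24).

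Among 17 regulators of lipid genes 7 (41.2%) were lower, 3 (17.6%) higher and 7 not called, with a median of -0.29. Over all tested genes 27.6% were lower and 33.9% higher. The median of the regulators moved to -0.53 without *hpl-2*(*tm1489*) replicate 3, to -0.14 without its replicate 2 and to -0.058 with library size alone. It turned to 0.15 with span offsets. *sbp-1*, the sterol regulatory element-binding protein that drives synthesis genes, was at 25.8, 16.7 and 26.9 CPM in *hpl-2*(*tm1489*), against 51.0 and 55.0 CPM in N2 (log2 fold change -1.20, standard error 0.29, adjusted p = 0.00709), and was not called with span offsets (-0.46, adjusted p = 0.115). Its Mediator partner *mdt-15* was also lower (-1.58, adjusted p = 0.00209). *nhr-49*, the nuclear receptor known to activate *acs-2* and the stearoyl-CoA desaturases, had 80.6, 55.3 and 81.1 CPM in *hpl-2*(*tm1489*) and 77.4 and 74.8 CPM in N2. These groups overlapped (log2 fold change -0.07, standard error 0.28, adjusted p = 0.839). The part of NHR-49 in the 16.4-fold change of *acs-2* was not tested. *nhr-80*, the partner of *nhr-49* at the desaturase genes, had a log2 fold change of -0.52 (adjusted p = 0.123). It passed in DESeq2 (0.0942) and without *hpl-2*(*tm1489*) replicate 2 (0.0647). *hlh-30*, the TFEB homolog that activates the lysosomal lipases, was at 30.6, 19.5 and 27.4 CPM in *hpl-2*(*tm1489*), against 86.9 and 111 CPM in N2 (log2 fold change -1.94, standard error 0.29, adjusted p = 0.000509). *mxl-3*, which represses the same lipases and was named after its value was seen, was higher (0.94, adjusted p = 0.0224), as were *nhr-69* (1.17) and *nhr-10* (0.76). Without N2 replicate 2 these 3 calls were lost (adjusted p 0.158, 0.163 and 0.354), and without *hpl-2*(*tm1489*) replicate 1 *mxl-3* (0.147) and *nhr-10* (0.135) were lost, *nhr-10* also without replicate 2 (0.166). *mxl-3* was not called with span offsets (0.282), and *nhr-10* neither under upper quartile scaling (0.302) nor without a low-count filter (0.112). *nhr-25* had the largest change of the list (-3.09, adjusted p = 5.26e-05). Whether any of these regulators, *hlh-30* and *mxl-3* among them, had a part in the changes of the members was not tested.

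The partner genes of oxidation were called lower more often than higher, where 27.6% of all tested genes were lower and 33.9% higher. The share called was 55.6% of mitochondrial, 66.7% of peroxisomal and 57.1% of propionate genes, beside 61.5% of all tested genes. Of 18 mitochondrial beta-oxidation partners 9 were lower and 1, *ech-7* (log2 fold change 1.14), was higher, with a median of -0.58. Without N2 replicate 1 and without N2 replicate 2, 5 and 6 of them were called lower, and with library size alone 5 were lower and 4 higher. The gene past 2 on the log2 scale was *cpt-5*, of the carnitine palmitoyltransferase family that brings acyl chains into mitochondria (-2.30, adjusted p = 0.000368). Of 12 matched peroxisomal genes 6 were lower and 2 higher (median -0.60), or 5 lower and 3 higher with library size alone. *acox-1.2*, listed as F08A8.2, for an acyl-CoA oxidase, was lower (-2.68, adjusted p = 6.48e-05). *ech-9*, an enoyl-CoA hydratase homolog, was higher, at 14.5, 27.8 and 18.4 CPM in *hpl-2*(*tm1489*), against 1.02 and 0.223 CPM in N2 (4.98, standard error 0.62, adjusted p = 0.000187), 6.50 without N2 replicate 1 and 4.32 without N2 replicate 2. *prx-5* was the other higher gene (0.65, adjusted p = 0.0932), a call lost without either N2 library (0.161 and 0.356) and without *hpl-2*(*tm1489*) replicate 1 (0.194) or 2 (0.188), and under DESeq2 (0.108), upper quartile scaling (0.398), span offsets (0.352) and no filter (0.188). Of 7 propionate genes 4 were lower and none higher (median -0.79), namely *pccb-1* (-1.70), *pcca-1* (-1.49), *alh-8* (-1.29) and Y38F1A.6 (-0.79, lost without N2 replicate 2 with an adjusted p of 0.255). Of 7 matched triglyceride genes the lipase cofactor *lid-1*, listed as C25A1.12, was higher (2.33, adjusted p = 0.000161), the lipase gene C46C11.1 was lower (-1.40) and 5 were not called (median 0.15). All 6 vitellogenins, the yolk proteins that carry lipid from the intestine to oocytes, were lower (median -2.55), from -4.33 for *vit-3* up to -1.94, with the reads of near-identical copies uncertain. The genes of this paragraph within 2 on the log2 scale were named after their values were seen.

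**Figure D4:**
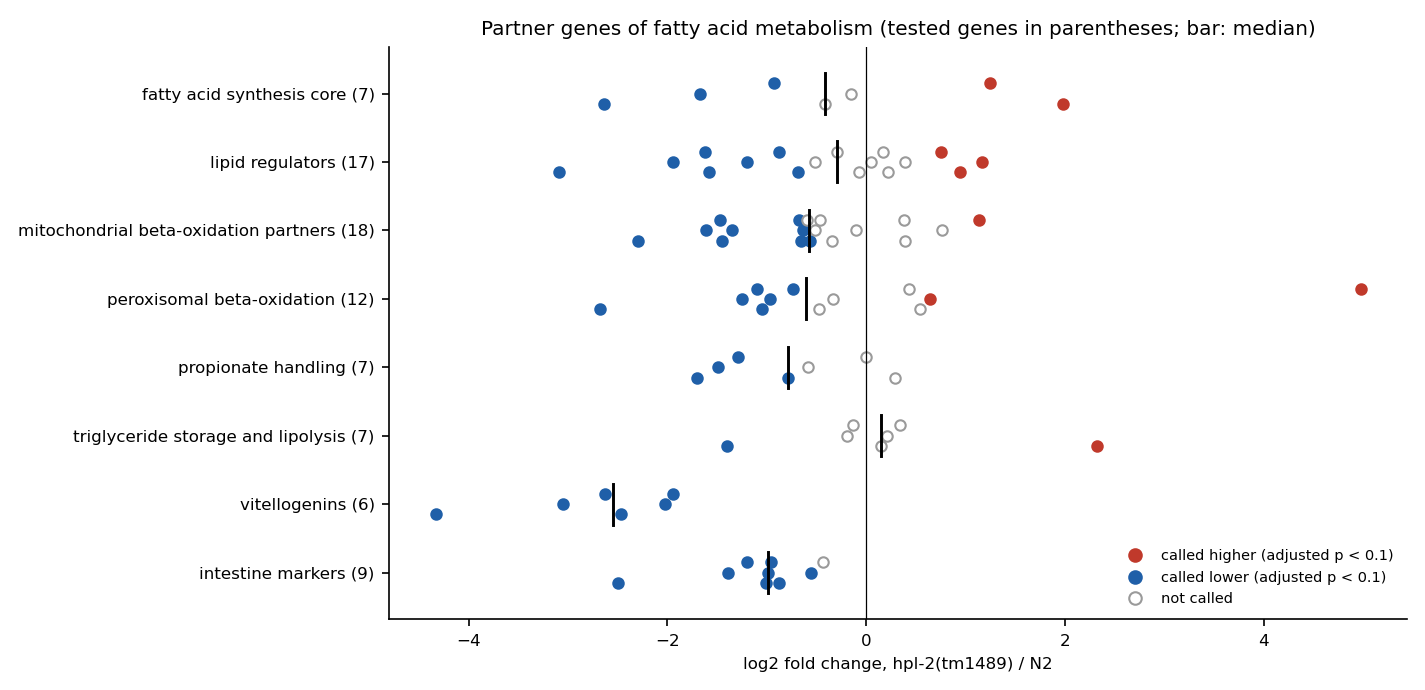
Log2 fold change, *hpl-2*(*tm1489*) over N2, on the horizontal axis of genes that work with the members, 1 row per list with the number of tested genes in parentheses and a bar at the median. Red points were called higher, blue points lower and open points not called. The 6 vitellogenins and the 9 intestine markers all lie to the left of 0, and *ech-9* lies farthest to the right at 4.98.

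The intestine, the main fat store of the worm, had less of its marker RNA in the mutant. The summed level of the 9 intestine markers was 4972, 3559.9 and 4647 CPM in *hpl-2*(*tm1489*) and 7306 and 8912 CPM in N2, all 9 had groups that did not overlap, and none was at 0. The 8 markers called lower became 4 without N2 replicate 2, with a median of -0.84. The median log2 fold change of these markers, -0.98, lay below that of the desaturases (-0.76) and of the synthetases (-0.33) and above that of the lipases (-1.62). The part of intestinal RNA in the changes of the members was not tested. The 18 called members with a log2 fold change below -1 included *fat-1*, *elo-7*, *acs-2*, *acs-20*, *acdh-6* and the 4 called lipases. They lay below the median marker by the choice of this cut, which 21.2% of all tested genes also passed.

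Under DESeq2, 10 members were higher and 29 lower (31.9% and 27.3% of all genes tested there). The scaling moved the counts more. Under upper quartile scaling 5 were higher and 32 lower (25.8% and 35.0% of all genes), with library size alone 14 and 21 (38.5% and 21.7%), and with span offsets 5 and 28 (30.6% and 30.3%). Of the calls on members 71.1% were lower under TMM, 86.5% under upper quartile scaling, 60.0% with library size alone and 84.8% with span offsets, and of the calls on all genes 44.9%, 57.5%, 36.0% and 49.7% were. The median of all genes itself moved, to -0.16 under upper quartile scaling and 0.41 with library size alone. Relative to the median of all genes the members' median was -0.42 under TMM, -0.42 under upper quartile scaling, -0.43 with library size alone and -0.47 with span offsets. TMM, upper quartile scaling and library size alone differ by a factor per library, which shifts all genes nearly alike. Their values relative to the median of all genes therefore had to lie close together. Without N2 replicate 1, 5 members were higher and 19 lower (30.8% and 23.5% of all genes), and without N2 replicate 2, 5 and 18 (26.2% and 22.0%). With a log2 fold change above 1 or below -1 also required, 4 members were higher and 18 lower, beside 27.6% and 21.2% of all genes. Of the 38 called members 19 kept their call and direction under every alternative. They were *fat-1*, *fat-5*, *elo-6*, *elo-7*, *acs-2*, *acs-3*, *acs-5*, *acs-10*, *acs-20*, *acs-22*, *lbp-4*, *acdh-2*, *acdh-6*, *acdh-7*, *acdh-10*, *lipl-1*, *lipl-3*, *lipl-4* and *lipl-6*.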

How the data were processed

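Reads were quality-trimmed by the authors and mapped with TopHat2 2.0.14 to WS220, and Rsubread assigned those with a unique position to WS220 genes. The deposited table holds the resulting raw counts for the 5 poly(A) libraries, not normalized. Other samples among the 21 in the labels (chromatin immunoprecipitation, double-stranded RNA, total RNA) were not analyzed here, nor were the authors' own fold changes and p-values from DESeq2 1.14.1. From the deposited counts, 23103 genes had at least 1 count and 17498 passed edgeR's filterByExpr (minimum count 10). Counts were scaled by TMM and fitted with edgeR 4.0.16 in R 4.3.3 (robust quasi-likelihood, genotype as the only term, common dispersion 0.0814), with Benjamini-Hochberg adjustment over all tested genes and calls at an adjusted p under 0.1. Standard errors came from the fold change and the F statistic, and CPM are counts over TMM-adjusted library size. The floor of 3 counts corresponds to 0.0235 to 0.0557 CPM and covers counting error only. The study states that its samples are biological replicates, and libraries of 1 genotype differed far beyond sampling noise (chi-square over degrees of freedom 100.3 to 589), so each counted as 1 replicate.

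The members and the gene lists (synthesis core, lipid regulators, mitochondrial and peroxisomal beta-oxidation, propionate handling, triglyceride storage, vitellogenins, and markers of intestine, epidermis, body muscle, neurons, germ line, oocytes and sperm) were chosen with earlier results of these data known. Full values were given for every *fat* gene and for the 4 called members of each other family with the largest change and a mean of at least 100 counts, and of the lists for set regulators and genes past 2 on the log2 scale. A planned choice by abundance per coding length was not made, as no coding lengths were used here. RefSeq (WBcel235) gave names for 66 of 67 members and spans for 97.1% of tested genes. Of the marker lists not described above, 1 of 6 neuronal genes was higher and 1 lower (median log2 fold change 0.17), 3 of 8 germ line genes were higher and 1 lower (0.15), 4 of 8 sperm genes were lower (-0.82), and the muscle marker *hlh-1* was listed at 0 in all libraries. Alternatives were DESeq2 1.42.0, its size factors, upper quartile factors, library size alone, no filter, a mean of at least 10 counts, span offsets, a replicate block, each library left out, an adjusted p under 0.05 and a minimum log2 fold change of 1. The procedure was tested on simulated data.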

Additional observations from a re-analysis of the deposited data

How the results depend on the processing

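Each library held 66490671 counts or more. Over the alternatives the count of members called higher moved from 11 to 5 under upper quartile scaling and span offsets, to 6 with a replicate block and to 4 with the minimum log2 fold change of 1, and with 1 library left out it lay between 5 and 10. Deviations from the group means correlated at -0.30 and -0.38 for same-numbered libraries. They correlated at 0.38 for *hpl-2*(*tm1489*) replicate 2 with N2 replicate 1. For *hpl-2*(*tm1489*) replicates 1 and 3 with N2 replicate 2 they correlated at 0.30 and 0.29. The deviations of the 2 N2 libraries mirror each other, so these values do not settle whether any libraries were paired. The replicate block left 6 members called higher and 18 lower, beside 4334 and 3563 of 17245 genes. With 1 library left out the members called lower lay between 18 and 31. The median log2 fold change of all members (main value -0.26) was -0.32 under DESeq2, -0.33 with its size factors, -0.58 under upper quartile scaling, -0.024 with library size alone, -0.35 without a filter, -0.44 with span offsets and -0.36 to -0.19 with 1 library left out. For upper quartile scaling, library size alone, no filter and span offsets in that order, the median was -1.07, -0.51, -0.85 and -0.86 for *fat* genes (-0.90 to -0.68 with 1 library left out), -0.85, -0.27, -0.62 and -0.93 for *elo* genes (-0.61 to -0.43) and -1.94, -1.38, -1.71 and -1.86 for *lipl* genes (-1.79 to -1.40, and -1.67 and -1.68 under DESeq2 and its size factors). The *acs* median was -0.66 under upper quartile scaling, -0.074 with library size alone, -0.60 with the block and -0.53 to -0.40 with 1 library left out, and the *lbp* median was 0.080 with span offsets and 0.39 to 0.87 with 1 library left out. The *acdh* median of 0.010 turned to -0.038 under DESeq2, -0.051 with its size factors, -0.29 under upper quartile scaling, -0.093 without a filter and -0.25 with span offsets, and lay between -0.31 and 0.088 with 1 library left out, at -0.0087 without *hpl-2*(*tm1489*) replicate 1, -0.31 without its replicate 2 and -0.016 without N2 replicate 2. Of the lists, the synthesis core median was -0.74 under upper quartile scaling, -0.15 with library size alone, -0.87 with span offsets and -0.55 to -0.25 with 1 library left out, the regulator median was -0.65 under upper quartile scaling, -0.058 with library size alone and -0.53 to -0.14 with 1 library left out and turned to 0.15 with span offsets, and the triglyceride median to -0.19 under upper quartile scaling, -0.042 with the block and -0.029 without *hpl-2*(*tm1489*) replicate 3 (-0.029 to 0.23 with 1 library left out). The mitochondrial partners called lower numbered 5 with the block, and their median was -0.92 under upper quartile scaling, the peroxisomal median -0.92 there, -0.36 with library size alone, -0.35 with span offsets and -0.78 to -0.37 with 1 library left out, and the propionate median -1.13 with span offsets. Among named genes, *fat-4* turned to -0.033 under upper quartile scaling, *lbp-7* to -0.10 with span offsets, and *nhr-49* to 0.17 with library size alone and 0.12 with span offsets. The uncalled *lbp-3*, *lbp-5* and *lbp-6* also turned negative with span offsets. Of the 71 named genes, 15 lost their call without N2 replicate 1, 21 without N2 replicate 2 and 17 with the block, and the rest kept side and direction in those fits. For each shift the cause was not tested.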
